A study of Mus musculus with 36 samples.

Results

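Chromatin accessibility was examined at 7 genes of the adenosine and cyclic AMP (cAMP) axis of T cell suppression, namely Entpd1, Nt5e, Adora2a, Pde3b, Pde4b, Pde4d and Crem. An ATAC-seq peak was assigned to one of these genes when its midpoint lay nearest to a protein-coding transcription start site (TSS) of the gene (mouse GENCODE annotation, GRCm39) or when it overlapped the gene body. This gave 144 of 71509 peaks, of which 16 belonged to Entpd1, 12 to Nt5e, 9 to Adora2a, 15 to Pde3b, 37 to Pde4b, 48 to Pde4d and 7 to Crem. Both criteria held for 112 peaks, the nearest TSS alone for 27 and the gene body alone for 5, and no peak was shared between these genes. In position, 91 peaks lay in introns, 14 in exons, 12 over a TSS, 12 upstream and 15 downstream of their gene. All 144 passed the filter on low counts.

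ATAC-seq reports open chromatin through the DNA that the Tn5 transposase can cut. Read counts per peak were available for 36 libraries in 12 groups of 3, made of mouse CD4+ T cells that carried or lacked a heterochromatin protein, HP1α or HP1γ. HP1α knockout (KO) cells came from mice with a germline deletion made from a floxed Hp1a allele and CMV-cre, with Hp1a+/+ littermates as wild type (WT), whereas HP1γ KO cells came from mice in which a floxed Hp1g allele was deleted by Cd4-cre in T cells, with floxed littermates without Cre as WT, all on a mixed 129/Sv and C57BL/6 background. Each of these 4 genotypes gave naive CD4+ T cells (CD62L+ CD44 low or negative) from spleen, and Vβ6+ allospecific conventional T cells (Tconv) sorted from the spleen of irradiated hosts, either CD45.1+ B6 or C57BL/6 J, that had received syngeneic and semi-allogeneic bone marrow with these naive cells, either alone or together with ex vivo expanded WT regulatory T cells (Treg). The transferred Treg carried Thy1.1, and the Tconv were sorted as cells without Thy1.1. The number of Treg given is not stated per library, and the study used various ratios of Treg to Tconv. For its HP1γ RNA-seq, the study states that WT cells were not effectively repressed at the ratio used. The Treg dose may therefore differ between the HP1α and HP1γ groups. The mice were young adult, sex-matched littermates. The meaning of the replicate numbers was not stated, so that p-values measure the spread between these libraries, which may be technical in part.

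Regulatory T cells can restrain other T cells through adenosine. The ectoenzyme CD39, encoded by Entpd1, breaks down extracellular ATP and ADP to AMP, and CD73, encoded by Nt5e, converts AMP to adenosine, which acts through a receptor encoded by Adora2a to raise cAMP in the responding cell. Phosphodiesterases such as those encoded by Pde3b, Pde4b and Pde4d hydrolyse cAMP, and Crem encodes a transcription factor of the cAMP response whose ICER isoforms are repressors.

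Depth differed widely between libraries. Reads in peaks ranged from 1.49 M to 96.8 M (megareads), with at least 19.4 M in every HP1γ library. Among HP1α Tconv with Treg, 12.7, 1.49 and 3.20 M were found in the 3 WT libraries and 50.7, 7.12 and 5.73 M in the 3 KO libraries. HP1α WT replicate 3 with Treg and HP1α KO replicates 2 and 3 with Treg were left out of the fits, since they had been set aside for low signal. This left 2 libraries and 1 library in these groups. The spread of the lone HP1α KO library was therefore taken from the other HP1α groups. All 8 CD4 T cell markers had a TSS peak in the data. The Cd4 TSS itself was more open in HP1γ KO than in HP1γ WT cells in naive cells, Tconv and Tconv with Treg, by 2.77, 2.55 and 2.60 on the log2 scale, and its accessibility did not pass the test in HP1α KO. Whether the Cd4-cre transgene gives these reads was not tested.

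The following DNA was taken from the 5 peaks on which the description turns, as the central 300 bases of each peak on the plus strand of GRCm39. Capitals mark matches, on either strand, to an AP-1 motif (TGANTCA), a RUNX motif (TGTGGT) or an NFAT motif (TGGAAA). No window overlaps an exon.

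Nt5e, chr9:88214466-88214765: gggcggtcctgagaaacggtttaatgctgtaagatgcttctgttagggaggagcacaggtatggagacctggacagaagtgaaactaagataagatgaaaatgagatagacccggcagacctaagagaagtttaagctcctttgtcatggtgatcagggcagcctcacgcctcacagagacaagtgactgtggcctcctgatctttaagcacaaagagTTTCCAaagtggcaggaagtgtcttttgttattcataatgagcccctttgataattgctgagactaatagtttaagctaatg
Adora2a, chr10:75130521-75130820: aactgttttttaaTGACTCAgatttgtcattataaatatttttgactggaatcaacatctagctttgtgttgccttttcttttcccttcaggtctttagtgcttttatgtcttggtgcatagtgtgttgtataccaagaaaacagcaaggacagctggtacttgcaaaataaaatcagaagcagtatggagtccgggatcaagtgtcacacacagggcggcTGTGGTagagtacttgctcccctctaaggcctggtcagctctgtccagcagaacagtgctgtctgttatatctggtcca
Pde4d, chr13:108899871-108900170: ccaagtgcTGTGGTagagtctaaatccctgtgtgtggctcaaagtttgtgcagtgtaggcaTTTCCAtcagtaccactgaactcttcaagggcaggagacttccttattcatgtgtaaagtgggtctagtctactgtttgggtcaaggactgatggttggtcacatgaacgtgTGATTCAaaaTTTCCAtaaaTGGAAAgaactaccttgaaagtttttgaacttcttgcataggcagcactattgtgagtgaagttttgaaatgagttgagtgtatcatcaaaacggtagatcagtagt
Pde4b, chr4:102250886-102251185: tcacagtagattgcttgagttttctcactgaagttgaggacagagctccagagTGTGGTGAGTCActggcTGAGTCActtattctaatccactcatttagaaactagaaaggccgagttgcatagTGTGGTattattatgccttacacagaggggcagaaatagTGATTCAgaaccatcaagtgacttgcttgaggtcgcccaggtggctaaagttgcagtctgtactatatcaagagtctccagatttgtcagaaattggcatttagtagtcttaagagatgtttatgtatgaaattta
Entpd1, chr19:40680201-40680500: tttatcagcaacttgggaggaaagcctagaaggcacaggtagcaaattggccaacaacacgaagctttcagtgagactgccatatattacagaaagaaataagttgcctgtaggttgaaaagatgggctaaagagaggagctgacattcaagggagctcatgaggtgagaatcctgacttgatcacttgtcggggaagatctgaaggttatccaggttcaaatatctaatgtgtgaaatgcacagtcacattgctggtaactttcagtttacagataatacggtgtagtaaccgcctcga

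The Nt5e window held 1 NFAT match, the Adora2a window 1 AP-1 and 1 RUNX match, the Pde4d window 1 AP-1, 1 RUNX and 3 NFAT matches, and the Entpd1 window none of these. In the Pde4b window, 3 AP-1 and 2 RUNX matches were found, and a RUNX and an AP-1 match overlap by 1 base within TGTGGTGAGTCA. Such a match is a description of the letters and not a bound site. In 300-base windows at the centres of all 144 peaks, the NFAT letters were present in 35.4%, against 23.7% of all 71509 peaks. The AP-1 letters were present in 17.4% against 13% and the RUNX letters in 34.0% against 30.0%. The full cAMP response element (TGACGTCA), the site of the CREB and CREM factors, was found in 3 of the 144 windows, which is 2.1% against 0.8%, and these lay at Nt5e, Pde4d and Crem. Its shorter form TGACG, which every full element also contains, was found in 20.8% against 16.3%.

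Peaks were called different between groups at an adjusted p below 0.05 (edgeR quasi-likelihood test, Benjamini-Hochberg over all peaks) together with an absolute log2 fold change above 1. Levels are given as log2 CPM, that is, counts scaled to the library size, a positive log2 fold change means more reads in the first-named group, and the libraries of a group are listed in the order of their replicate numbers. In bulk ATAC-seq, a larger share of cells with an open site and a more open site in each cell cannot be told apart.

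To ask whether Treg alter this axis in the Tconv they regulate, Tconv with Treg were compared with Tconv without Treg in each genotype. Among HP1α WT Tconv, 5 of the 144 peaks rose and 1 fell with Treg, and over all peaks 4.92% rose and 1.84% fell. In HP1γ KO Tconv, 7 rose and 4 fell, beside 6.1% and 2.06% of all peaks. No member was called in HP1α KO Tconv (0.264% of all peaks higher and 0.284% lower) or in HP1γ WT Tconv (0.0671% and 0.0699%). At an unadjusted p below 0.05, 9 members (6.25%) differed in HP1α KO and 21 (14.6%) in HP1γ WT, beside 8.54% and 20.3% of all peaks, and DESeq2 called 0 and 1 member. The shares called were thus near those of all peaks in each genotype. On leaving out 1 library, the HP1α WT count was 0 without replicate 1 with Treg and 3 without replicate 1 of the Tconv, and the HP1γ KO count was 4 and 21 without replicates 1 and 2 with Treg and 6 without replicate 1 of the Tconv. The median log2 fold change of the 144 peaks was 0.17 in HP1α WT, -0.02 in HP1α KO, 0.00 in HP1γ WT and -0.03 in HP1γ KO, beside 0.10, 0.04, 0.03 and -0.02 over all peaks. The HP1α WT and HP1γ KO comparisons share no library. Of their called members 4 were common to both, at Nt5e, Adora2a, Pde4b and Pde4d, each with the same direction in both, which is 66.7% of the HP1α WT calls and 36.4% of the HP1γ KO calls. Over all peaks, 2292 were called in both, all with the same direction, which is 47.4% and 39.3% of the calls in these comparisons.

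**Figure D1:**
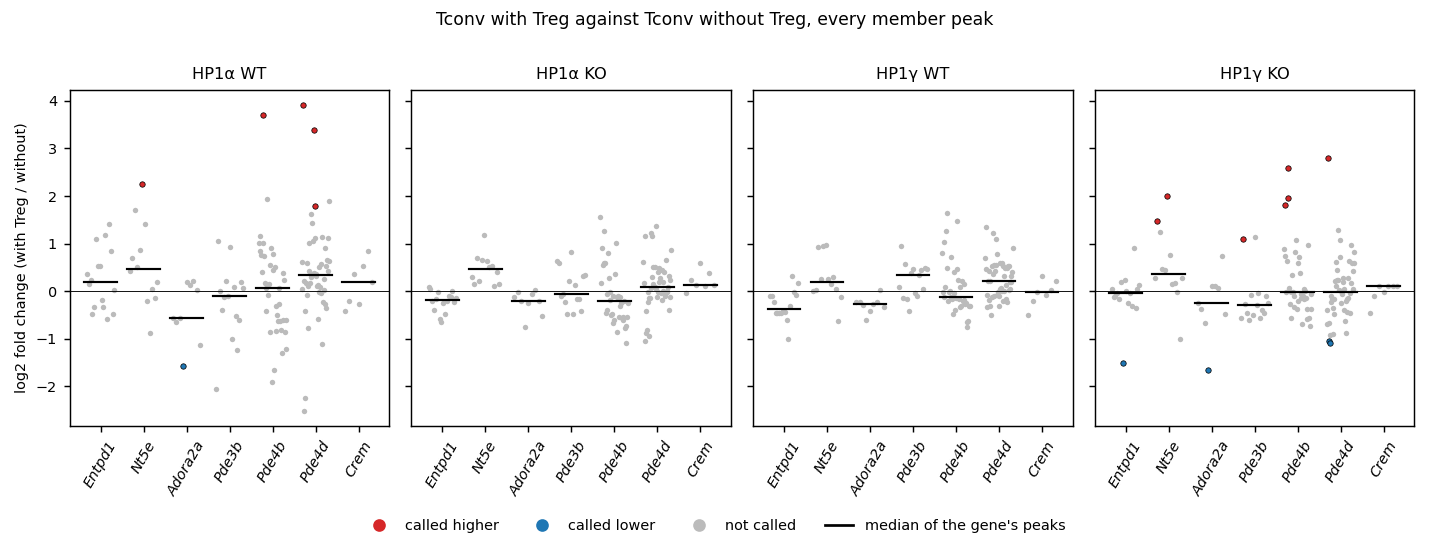
Log2 fold change of Tconv with Treg over Tconv without Treg for each of the 144 peaks, grouped by gene, in HP1α WT, HP1α KO, HP1γ WT and HP1γ KO. Red points were called higher, blue points lower and grey points were not called, and a line marks the median of a gene. Called peaks appear in HP1α WT (5 higher, 1 lower) and HP1γ KO (7 higher, 4 lower).

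The difference between KO and WT in the Treg effect was tested directly as an interaction of genotype and Treg. No member was called in HP1α (0% of all peaks higher and 0.0461% lower) or in HP1γ (0.0014% and 0%), and none was called by DESeq2. At an unadjusted p below 0.05 stood 5 members (3.47%) in HP1α and 20 (13.9%) in HP1γ, beside 10.3% and 12.8% of all peaks. The Treg effect at these genes was therefore not shown to differ between genotypes of a locus. The WT groups of HP1α and HP1γ, which gave 6 and 0 called members, were not tested against each other. Their Treg dose may also differ.

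KO and WT were also compared at the same state. In Tconv with Treg, 4 members were lower in HP1α KO and none higher, beside 1.42% and 0.218% of all peaks, with the KO represented by 1 library. HP1γ KO Tconv with Treg had 10 members higher and 7 lower than WT, beside 6.48% and 5.38%. These comparisons use the same libraries with Treg as the comparison with Tconv alone and are not independent of it. The HP1α count was 0 and 2 without WT replicates 1 and 2, and in HP1γ, leaving out KO replicate 1 gave 8 members and leaving out WT replicate 2 gave 9. Without Treg, 2 Pde4d peaks were higher in HP1γ KO Tconv and none lower (1.69% and 1.66% of all peaks), and none was called in HP1α KO Tconv (0.00839% higher, 0.0126% lower). In naive cells no member was called in HP1α KO (0.0042% and 0.0014%) or HP1γ KO (0.133% and 0.00699%). At an unadjusted p below 0.05, the HP1α Tconv, HP1α naive and HP1γ naive comparisons held 8, 1 and 28 members, or 5.56%, 0.694% and 19.4%, beside 4.82%, 1.17% and 8.98% of all peaks. DESeq2 called 0, 0 and 2 members.

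**Figure D2:**
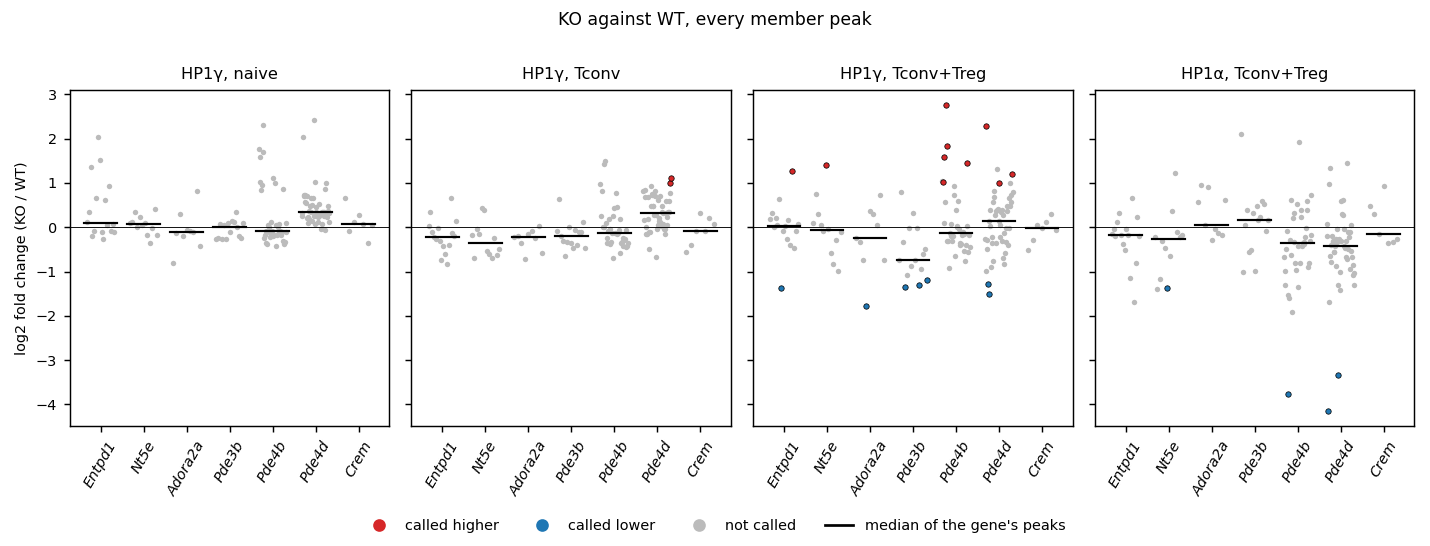
Log2 fold change of KO over WT for the 144 peaks by gene, in HP1γ naive cells, HP1γ Tconv, HP1γ Tconv with Treg and HP1α Tconv with Treg. Colours and lines are as in the plot of the Treg effect. The HP1γ Tconv with Treg hold 10 higher and 7 lower peaks, and the HP1α Tconv with Treg, with a lone KO library, 4 lower peaks.

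Tconv without Treg were compared with naive cells as the wider frame of the activation state. These groups also differ in transfer into irradiated hosts and in the Vβ6 sort. In HP1α WT, 42 members rose and 24 fell, beside 24.9% and 17.5% of all peaks. HP1α KO gave 35 and 30 (23.5% and 19% of all peaks), HP1γ WT 37 and 32 (24.5% and 22%) and HP1γ KO 34 and 38 (22.4% and 20.6%). The median log2 fold change of the members was -0.09, -0.13, -0.11 and -0.21 in that order, beside -0.03, -0.05, 0.08 and 0.06 over all peaks. The genes differed in direction. Entpd1 gave 9 to 10 risen and 1 fallen of its 16 peaks in each genotype and Adora2a 4 to 6 risen and 0 to 1 fallen of 9, whereas Pde3b gave 0 to 1 risen and 5 to 9 fallen of 15 and Pde4d 2 to 5 risen and 11 to 16 fallen of 48. Pde4b gave 12 to 18 risen and 5 to 7 fallen of 37, and Nt5e 2 to 3 risen and 2 to 5 fallen of 12.

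**Figure D3:**
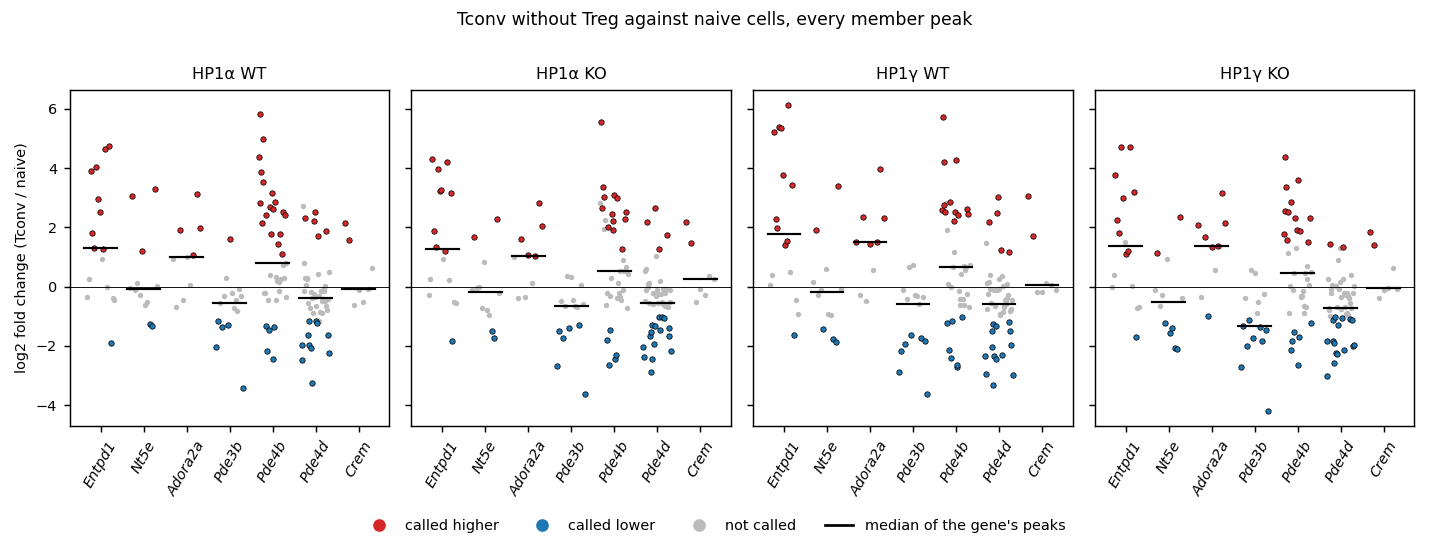
Log2 fold change of Tconv without Treg over naive cells for the 144 peaks by gene, in the 4 genotypes. Colours and lines are as in the plot of the Treg effect. Most called Entpd1 and Adora2a peaks lie above 0 and most called Pde3b and Pde4d peaks below it in each genotype.

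Nt5e (ENSMUSG00000032420.10, chr9:88209089-88254146, plus strand) encodes CD73, the enzyme that forms adenosine at the cell surface. Its intronic peak at chr9:88214031-88215200, centred 5526 bases downstream of the TSS, had more reads with Treg in every genotype, and rose by the test in HP1α WT and in HP1γ KO. The naive libraries gave 1.08, 0.71 and 0.53 log2 CPM in HP1α WT, 1.13, 0.69 and 0.66 in HP1α KO, 0.93, 0.95 and 0.77 in HP1γ WT and 0.86, 0.43 and 1.07 in HP1γ KO. Tconv without Treg gave 1.58, 2.28 and 2.29 in HP1α WT, 1.69, 1.49 and 1.61 in HP1α KO, 1.5, 1.38 and 1.31 in HP1γ WT and 1.84, 1.98 and 1.56 in HP1γ KO. With Treg, the libraries used gave 4.14 and 3.86 in HP1α WT, 2.73 in HP1α KO, 2.65, 1.86 and 2.48 in HP1γ WT and 4.09, 3.59 and 3.43 in HP1γ KO. In each genotype every library with Treg lay above every library without Treg, and every Tconv library lay above every naive library. This peak was named for the smallest p of the gene in each Treg comparison. The separation with Treg is therefore in part a result of that choice. The libraries left out of the fit stood at 2.84 in HP1α WT and 3.38 and 2.74 in HP1α KO, also above the Tconv libraries of their genotype.

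With Treg this Nt5e peak was 4.80-fold higher in HP1α WT (log2 fold change 2.26, adjusted p = 0.000246) and 3.98-fold higher in HP1γ KO (1.99, adjusted p = 2.84e-05). The log2 difference was 1.17 in HP1α KO (adjusted p = 0.0508) and 0.97 in HP1γ WT (adjusted p = 0.0968), which did not pass. These passed under 2 of 12 alternatives in HP1α KO, with depth as a covariate (1.14, adjusted p = 0.0384) and with all 18 HP1α libraries (1.29, adjusted p = 0.0117), and under 1 of 14 in HP1γ WT, without replicate 2 with Treg (1.21, adjusted p = 0.0348). The HP1γ KO call was made under all 14 alternative settings, with values between 1.77 and 2.10. The HP1α WT call was lost when replicate 1 with Treg was left out (1.97, adjusted p = 0.970). The interaction was -1.09 in HP1α (unadjusted p = 0.0118 from edgeR, adjusted p = 0.343) and 1.02 in HP1γ (unadjusted p = 0.00671, adjusted p = 0.312).

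In the order of group means, the 4 naive groups lay lowest, between 0.77 and 0.88 log2 CPM, and their libraries overlapped. The 4 Tconv groups without Treg followed, from 1.40 ± 0.09 in HP1γ WT to 2.05 ± 0.41 in HP1α WT (SD, n = 3), each overlapping its neighbour. HP1γ WT with Treg (2.33 ± 0.42, n = 3) overlapped HP1α WT without Treg. The single HP1α KO library with Treg came next, and HP1γ KO (3.71 ± 0.35, n = 3) and HP1α WT (4.0 ± 0.21, n = 2) with Treg overlapped each other and lay above all other groups. Between genotypes with Treg, the peak was lower in HP1α KO than in WT (-1.37, adjusted p = 0.0309), a call lost under 8 of 11 alternatives and without either WT library (adjusted p = 0.973 and 0.0910). It was higher in HP1γ KO than in WT (1.40, adjusted p = 0.000155), a call made under all 14 alternatives. By flow cytometry of Vβ6+ Tconv, the study counted anergic (unresponsive) cells positive for CD73 and FR4. It reports more of them with Treg in HP1γ KO than in WT, and no such change in HP1α KO. Surface protein and accessibility were not compared here.

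The Nt5e promoter peak (chr9:88208001-88212620), the most open of the gene, lay between 4.98 and 6.11 log2 CPM in all 36 libraries. Its log2 difference with Treg was 0.50, 0.21, 0.26 and 0.47 in HP1α WT, HP1α KO, HP1γ WT and HP1γ KO and did not pass in any. A peak 53588 bases upstream (chr9:88155081-88155920) rose with Treg in HP1γ KO, with 2.15, 1.75 and 1.66 log2 CPM without and 3.92, 2.54 and 3.17 with Treg. The groups did not overlap (log2 fold change 1.48, adjusted p = 0.00468), and without KO replicate 1 with Treg the value was 0.99 and not called, nor was it called with only the groups compared (adjusted p = 0.0839). In the other genotypes the difference was 0.69, 0.15 and 0.04 and did not pass. Over the gene, 9, 12, 9 and 10 of 12 peaks had a log2 difference above 0 with Treg in HP1α WT, HP1α KO, HP1γ WT and HP1γ KO. The medians were 0.46, 0.46, 0.20 and 0.36, above the medians over all peaks given before. Over all peaks, 39223 (WT) and 39891 (KO) of 71509 lay above 0 in HP1α. In HP1γ these were 37945 (WT) and 34110 (KO) of 71508.

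From naive cells to Tconv, the upstream Nt5e peak rose in all genotypes, by 3.08, 1.67, 1.92 and 1.12 in the same order, and an exonic peak (chr9:88248141-88248660) was lower by a log2 fold change of -1.32, -1.73, -1.89 and -2.11. The intronic peak rose in HP1α WT (1.19, adjusted p = 0.000764), and its differences of 0.82, 0.60 and 0.94 in the other genotypes were below the fold threshold.

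**Figure D4:**
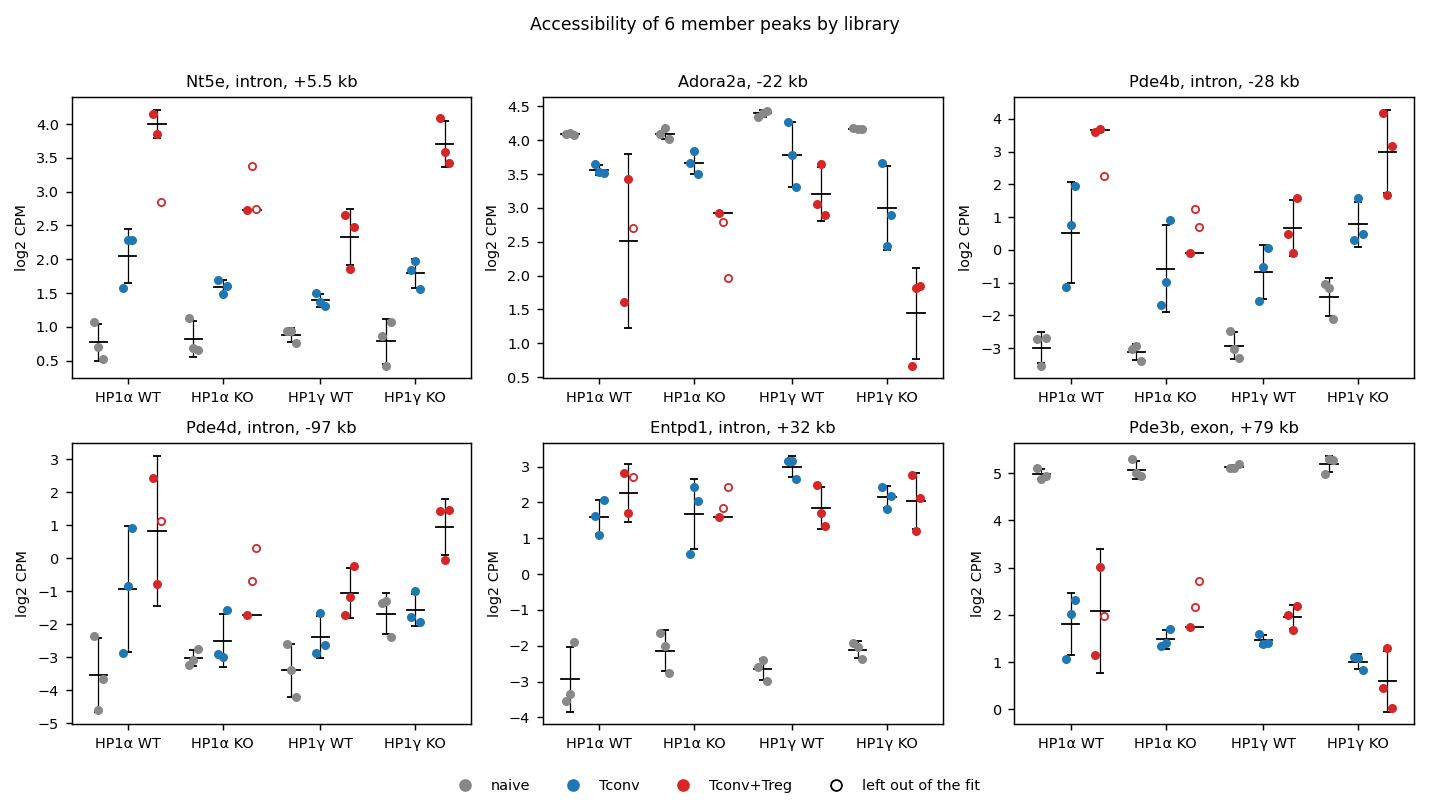
Log2 CPM of 6 peaks in each library of the 12 groups, at Nt5e, Adora2a, Pde4b, Pde4d, Entpd1 and Pde3b, with naive cells in grey, Tconv in blue and Tconv with Treg in red. Filled points were used in the fits, open points are the 3 libraries left out, and bars show mean ± SD of the filled points. At Nt5e the groups with Treg lie above Tconv in each genotype, and at Adora2a their means lie below.

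Entpd1 (ENSMUSG00000048120.18, chr19:40600810-40731585, plus strand) encodes CD39. Its most open peak by the mean over the libraries (chr19:40599871-40601340) lies over a TSS that the peak shares with the neighbouring gene Tctn3. At a peak over another Entpd1 TSS (chr19:40647721-40650880), named after its values were seen, Tconv lay above naive cells in every genotype, with log2 fold changes of 1.30, 1.36, 1.99 and 1.81 in HP1α WT, HP1α KO, HP1γ WT and HP1γ KO. Its difference with Treg was -0.32, -0.16, -0.47 and -0.17 and was not called.

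The Entpd1 intronic peak at chr19:40679881-40680820 was nearly closed in naive cells and open in Tconv. In HP1γ WT it gave -2.60, -2.39 and -2.98 log2 CPM in naive cells, 3.16, 3.17 and 2.66 in Tconv and 2.48, 1.69 and 1.33 in Tconv with Treg. In HP1γ KO it gave -1.93, -2.05 and -2.38, then 2.43, 1.82 and 2.19, and 2.78, 1.21 and 2.12 with Treg. The Tconv libraries lay far above the naive libraries in both, whereas the libraries with Treg lay below those without in HP1γ WT and overlapped them in HP1γ KO. In HP1α WT the peak gave 1.63, 1.09 and 2.06 without and 2.83 and 1.70 with Treg, and in HP1α KO 0.57, 2.43 and 2.05 without and 1.59 with Treg, over the libraries used. These groups overlapped, and the HP1α WT difference of 1.19, opposite in sign to that of HP1γ WT, was not called (adjusted p = 0.267). The rise from naive cells was 4.66, 4.21, 6.14 and 4.71 on the log2 scale in the 4 genotypes. The difference with Treg in HP1γ WT was -1.0 (adjusted p = 0.0894) and was called with the replicate block, whose pairing held in this comparison (-1.06, adjusted p = 0.0330). This made 1 member called in HP1γ WT with the block, against 0 without it.

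A nearer intronic Entpd1 peak (chr19:40655701-40656380) fell with Treg in HP1γ KO, with 1.53, 1.31 and 1.58 log2 CPM without and 0.06, -0.46 and 0.54 with Treg. The groups did not overlap (log2 fold change -1.51, adjusted p = 0.00298), and the HP1γ WT difference was -0.46 (adjusted p = 0.296). The HP1γ KO call was lost under 2 of 14 alternatives, the earlier quasi-likelihood method of edgeR (adjusted p = 0.0659) and the fit of only the groups compared (adjusted p = 0.0505). With Treg this peak was lower in HP1γ KO than in WT (-1.36, adjusted p = 0.00788). A further intronic peak (chr19:40699931-40700370) differed the other way between HP1γ KO and WT with Treg, by 1.26 (adjusted p = 0.00376). It gave 2.09, 1.73 and 1.92 log2 CPM in KO and 0.99, 0.09 and 0.85 in WT, without overlap. Without WT replicate 2 the difference was 0.98, below the fold threshold. The Entpd1 peaks thus did not move together with Treg, and their median was 0.19, -0.19, -0.37 and -0.03 in HP1α WT, HP1α KO, HP1γ WT and HP1γ KO.

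Adora2a (ENSMUSG00000020178.8, chr10:75152560-75170628, plus strand) encodes the main adenosine receptor of T cells, which couples to cAMP formation. A peak 21890 bases upstream of its nearest TSS (chr10:75129861-75131480) fell with Treg in HP1α WT and in HP1γ KO. This peak lies outside the gene body and was assigned by the nearest TSS alone. It was open to a like extent in naive cells, at 4.01 to 4.44 log2 CPM in the 12 naive libraries. Tconv without Treg gave 3.65, 3.53 and 3.51 in HP1α WT, 3.67, 3.84 and 3.5 in HP1α KO, 4.26, 3.79 and 3.31 in HP1γ WT and 3.67, 2.44 and 2.89 in HP1γ KO. With Treg the libraries used gave 1.61 and 3.42 in HP1α WT, 2.92 in HP1α KO, 3.06, 3.65 and 2.90 in HP1γ WT and 0.67, 1.81 and 1.85 in HP1γ KO. The groups did not overlap in HP1α WT, HP1α KO and HP1γ KO and did so in HP1γ WT, and in HP1α WT 1 of the 2 libraries carried most of the distance.

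The log2 fold change with Treg at this Adora2a peak was -1.57 in HP1α WT (adjusted p = 0.0160), -0.76 in HP1α KO (adjusted p = 0.162), -0.59 in HP1γ WT (adjusted p = 0.230) and -1.65 in HP1γ KO (adjusted p = 0.00563). Without replicate 1 with Treg the HP1α WT value was -0.21 and was not called, and without replicate 1 of the Tconv it was -1.54 (adjusted p = 0.0597). The HP1γ KO call was lost without replicate 1 with Treg (-1.30, adjusted p = 0.0520). Neither was called with only the groups compared (adjusted p = 0.0583 and 0.0713). With Treg the peak was lower in HP1γ KO than in HP1γ WT (-1.79, adjusted p = 0.00329), under all 14 alternatives as well, while the interaction was -1.06 (unadjusted p = 0.0350, adjusted p = 0.366).

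The Adora2a promoter peak (chr10:75151861-75157260) was the most open of the gene in naive cells, and its difference between Tconv and naive cells of 0.04, 0.12, 0.56 and 0.56 in the 4 genotypes was not called. Other peaks of the gene opened in Tconv. The exonic peak at chr10:75165541-75166670 lay between -1.69 and -0.01 log2 CPM in the 12 naive libraries and between 1.30 and 2.78 in the 12 Tconv libraries without Treg. Its log2 fold change was 3.12, 2.82, 3.98 and 3.18, without overlap between the groups. A wide peak 14314 bases upstream (chr10:75134991-75141500) differed by 0.99, 1.06, 1.44 and 1.35, the first of which was just below the fold threshold.

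Pde3b (ENSMUSG00000030671.11, chr7:114013685-114138486, plus strand) encodes a phosphodiesterase that hydrolyses cAMP and is inhibited by cGMP. Its exonic peak at chr7:114092671-114094150 closed from naive cells to Tconv in each genotype, from 4.89 to 5.30 log2 CPM in the 12 naive libraries to 0.83 to 2.33 in the 12 Tconv libraries. This peak was assigned by the gene body alone, since its midpoint lies nearer to a coding TSS of another gene. The log2 fold change was -3.44, -3.63, -3.61 and -4.19 in HP1α WT, HP1α KO, HP1γ WT and HP1γ KO. With Treg it gave 2.00, 1.69 and 2.19 in HP1γ WT and 0.45, 1.30 and 0.04 in HP1γ KO, which was lower in KO without overlap (-1.19, adjusted p = 0.0100). This call was lost under 2 of 14 alternatives, with only the groups compared (-1.20, adjusted p = 0.0585) and without KO replicate 1 with Treg (-1.02, adjusted p = 0.0585). Of the 15 Pde3b peaks, 13 had a log2 difference below 0 between HP1γ KO and WT with Treg. Their median was -0.73, and 3 were called, all lower. Over all peaks, 36749 of 71508 were below 0, the median was -0.02 and 5.38% were called lower.

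A peak 58638 bases upstream of Pde3b (chr7:113955541-113956080) rose with Treg in HP1γ KO, from 0.30, 0.76 and 1.14 to 2.27, 1.61 and 1.68 log2 CPM (log2 fold change 1.10, adjusted p = 0.00745). The groups did not overlap in any of the 4 genotypes, with the libraries with Treg higher, but the differences of 1.07 in HP1α WT, 0.59 in HP1α KO and 0.95 in HP1γ WT were not called. The library left out of HP1α WT stood at -0.14, below its Tconv libraries. The HP1γ KO value was 0.84 without replicate 1 with Treg and 0.91 without replicate 1 of the Tconv, and was not called in either case. This peak was lower in Tconv than in naive cells in every genotype, by a log2 fold change of -1.18, -1.5, -2.19 and -1.31.

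Pde4b (ENSMUSG00000028525.18, chr4:101944740-102465716, plus strand) encodes a cAMP-specific phosphodiesterase that is induced on T cell receptor signalling. Its intronic peak at chr4:102250531-102251540, 27680 bases upstream of the nearest Pde4b TSS, rose with Treg in HP1α WT and HP1γ KO. Tconv without Treg gave -1.12, 0.76 and 1.96 log2 CPM in HP1α WT, -1.67, -0.97 and 0.91 in HP1α KO, -1.55, -0.52 and 0.06 in HP1γ WT and 0.30, 1.57 and 0.49 in HP1γ KO. With Treg the libraries used gave 3.61 and 3.69 in HP1α WT, -0.08 in HP1α KO, 0.50, -0.09 and 1.58 in HP1γ WT and 4.18, 1.67 and 3.17 in HP1γ KO. The groups were apart in HP1α WT and HP1γ KO and overlapped in the other genotypes, and the spread within a group was wide.

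The log2 fold change with Treg at this Pde4b peak was 3.69 in HP1α WT (adjusted p = 0.000349) and 2.59 in HP1γ KO (adjusted p = 0.00133). It was 0.60 in HP1α KO and 1.26 in HP1γ WT (adjusted p = 0.438), neither called. Without replicate 1 with Treg, the HP1α WT value was 3.71 and was not called (adjusted p = 0.970). The peak was lower in HP1α KO than in HP1α WT with Treg (-3.76, adjusted p = 0.00383) and higher in HP1γ KO than in HP1γ WT (2.76, adjusted p = 0.00144), and the interactions were -3.09 (unadjusted p = 0.00260, adjusted p = 0.233) and 1.33. The HP1α call between genotypes rests on 1 KO library and was lost under 4 of 11 alternatives, with -2.34 under the depth covariate (adjusted p = 0.280) and -3.76 without WT replicate 1 (adjusted p = 0.973). With only the groups compared, neither the HP1γ KO difference with Treg (adjusted p = 0.0846) nor the HP1γ difference between genotypes (adjusted p = 0.0549) was called.

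Another 2 Pde4b intronic peaks rose with Treg in HP1γ KO with overlapping libraries, at chr4:102113171-102114030 (1.81, adjusted p = 0.00949) and chr4:102297511-102298190 (1.96, adjusted p = 0.0256). Their replicate 2 with Treg stood at -0.09 and -1.63 log2 CPM, within or near the range without Treg, and without replicate 1 with Treg the values were 0.87 and 0.88 and not called. A peak at chr4:102377861-102378790 changed less but more evenly, from 2.91, 2.86 and 2.92 to 3.89, 3.60 and 3.66 log2 CPM in HP1γ KO, without overlap (0.82, adjusted p = 0.00106, below the fold threshold). Its HP1γ interaction of 0.86 had the smallest unadjusted p among the members (0.000638, adjusted p = 0.271). The widest and most open Pde4b peak (chr4:102424301-102433380), over a TSS, differed with Treg by -0.32, -0.11, -0.17 and -0.05 in HP1α WT, HP1α KO, HP1γ WT and HP1γ KO, none called. From naive cells to Tconv, the peak at chr4:101961611-101962300 rose by 5.82, 5.57, 5.72 and 4.39.

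Pde4d (ENSMUSG00000021699.19, chr13:108586482-110092497, plus strand) encodes a further cAMP-specific phosphodiesterase. Its intronic peak at chr13:108899831-108900210, 96680 bases upstream of the nearest Pde4d TSS, was near closed without Treg and rose with Treg in HP1γ KO. There it gave -1.77, -1.0 and -1.92 log2 CPM in Tconv and 1.43, -0.04 and 1.45 with Treg. In HP1γ WT it gave -2.88, -1.67 and -2.63 in Tconv and -1.72, -1.19 and -0.23 with Treg. The HP1γ KO groups were apart and the HP1γ WT groups overlapped.

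In HP1γ KO this Pde4d peak rose by 2.80 with Treg (adjusted p = 0.000244) and was higher in KO than in WT with Treg by 2.29 (adjusted p = 0.000980), both under all 14 alternatives. In HP1γ WT the difference of 1.36 was not called (adjusted p = 0.305). It was also called in HP1α WT (3.92, adjusted p = 0.00371), where the 2 libraries with Treg held 71 reads and 1 read and their 2.43 and -0.80 log2 CPM overlapped the -2.88, -0.83 and 0.92 without Treg. Without replicate 1 with Treg that value was 0.74 and was not called. The KO against WT difference with Treg in HP1α was -4.14 (adjusted p = 0.0219), and -0.95 without WT replicate 1 (adjusted p = 0.982).

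Of the other Pde4d peaks, an exonic peak (chr13:109897681-109898350) and an intronic peak (chr13:109946191-109946540) rose with Treg in HP1α WT, by 3.39 (adjusted p = 0.00494) and 1.79 (adjusted p = 0.0158). Both calls were lost without replicate 1 with Treg and without replicate 1 of the Tconv, with values of 2.12 and 2.02 for the exonic peak and 1.44 and 1.5 for the intronic peak, and the intronic call also without replicate 2 with Treg (1.72). In HP1γ KO, an exonic peak (chr13:108997371-108997650) and an intronic peak (chr13:109326561-109327180) fell with Treg, by a log2 fold change of -1.05 (adjusted p = 0.0390) and -1.08 (adjusted p = 0.0345). The values of these were -0.74 and -0.69 without replicate 1 with Treg, not called, and both calls were also lost without some of the Tconv libraries. The most open Pde4d peak by the mean over the libraries (chr13:110038371-110045100), over a TSS, was not called with Treg in any genotype.

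Over the gene, 36, 29, 33 and 24 of 48 Pde4d peaks had a log2 difference above 0 with Treg in HP1α WT, HP1α KO, HP1γ WT and HP1γ KO. The medians were 0.34, 0.08, 0.21 and -0.02, beside 0.10, 0.04, 0.03 and -0.02 over all peaks. Of all peaks, 39223 (WT) and 39891 (KO) of 71509 lay above 0 in HP1α. In HP1γ these were 37945 (WT) and 34110 (KO) of 71508. From naive cells to Tconv, the peak at chr13:109374241-109376650 was lower by a log2 fold change of -1.62, -1.66, -1.5 and -1.85. Without Treg, 2 downstream peaks, at chr13:110176461-110177190 and chr13:110185381-110186260, were higher in HP1γ KO than in WT Tconv, by 1.01 (adjusted p = 0.0166) and 1.11 (adjusted p = 0.0178). Neither was called when only these groups entered the fit, or without KO replicate 3 or WT replicate 1 or 2, and 1 was called without KO replicate 2.

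Crem (ENSMUSG00000063889.18, chromosome 18, minus strand) had 7 peaks, none called with Treg or between KO and WT. Its promoter peak, the most open, differed by 0.53 with Treg in HP1α WT (adjusted p = 0.161). From naive cells to Tconv 2 of its peaks rose in each genotype. The one 32848 bases past the nearest TSS, beyond the gene's end, rose by 2.15, 2.17, 3.07 and 1.84 in HP1α WT, HP1α KO, HP1γ WT and HP1γ KO. In HP1γ WT it gave -0.35, -1.20 and -1.09 log2 CPM in naive cells, 2.31, 2.03 and 1.67 in Tconv and 1.54, 1.68 and 1.39 with Treg. The naive and Tconv libraries were apart, and those with and without Treg overlapped.

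Markers of other cells were read beside the Treg comparisons. All 8 Treg markers had a TSS peak, and in HP1α WT 1 was called higher with Treg (Ikzf2) and 1 lower (Il2ra), with none called in the other genotypes. Of the 8, 5 had a log2 difference above 0 in HP1α WT (median 0.61), 3 in HP1α KO (-0.11), 2 in HP1γ WT (-0.16) and 5 in HP1γ KO (0.10). The TSS peak of Foxp3, the Treg transcription factor, was not called. It stood at 79.8 CPM without and 66.5 with Treg in HP1α WT and at 103 and 97.9 CPM in HP1γ KO. Naive cells gave 141, 127, 123 and 120 CPM there in HP1α WT, HP1α KO, HP1γ WT and HP1γ KO. These lie above the Tconv groups, so that this level does not by itself measure Treg content. The summed accessibility of the 8 Treg markers was 262 to 352 CPM without and 326 to 434 with Treg in HP1α WT, 301 to 392 and 341 in HP1α KO, 339 to 416 and 298 to 372 in HP1γ WT and 335 to 417 and 437 to 470 in HP1γ KO. In the latter the ranges did not overlap, as at the Nt5e intronic peak, and the part of this in the result was not tested. In naive cells the sum was 381 to 429, 377 to 381, 344 to 361 and 362 to 404 CPM in the same order of genotypes. Only 1 of 5 B cell markers (Pax5) had a TSS peak, at 5.25 CPM without and 15.2 with Treg in HP1α WT (called higher) and 5.76 and 9.29 in HP1γ KO (0.71, adjusted p = 0.0173, below the fold threshold). Its part in the Treg results was not tested either. Of the 8 CD4 T cell markers, none had a log2 difference above 0 with Treg in HP1α WT (median -0.46) or HP1γ WT (-0.27), 3 did in HP1α KO (-0.04) and 1 in HP1γ KO (-0.13). Thy1 was called lower in HP1α WT (-1.39, adjusted p = 0.00330), and none was called in the other genotypes. Their summed accessibility was 763 to 1068 CPM without and 560 to 778 with Treg in HP1α WT, 877 to 1092 and 995 in HP1α KO, 1079 to 1312 and 887 to 1116 in HP1γ WT and 1565 to 1854 and 1449 to 1682 in HP1γ KO, and its part in the results was not tested. Of 6 myeloid markers 3 had a TSS peak, and Itgam was called lower with Treg in HP1γ KO (-1.30, adjusted p = 0.00879).

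Further genes of adenosine handling and cAMP signalling gave the setting of these results. Of 47 such genes 45 had a peak, with 412 peaks in all. With Treg, 20 of these rose and 11 fell in HP1α WT, 1 rose and 1 fell in HP1α KO, none was called in HP1γ WT, and 21 rose and 5 fell in HP1γ KO. Over all peaks, 4.92% rose and 1.84% fell in HP1α WT and 6.1% and 2.06% in HP1γ KO, and the shares for HP1α KO and HP1γ WT were given before. The risen shares of these genes in HP1α WT and HP1γ KO thus lay near or below those of all peaks. The fallen share of these genes lay above that of all peaks in HP1α WT and below it in HP1γ KO. Their median log2 fold change was -0.11 in HP1α WT and -0.07 in HP1γ KO, beside 0.10 and -0.02 over all peaks. Ptger2, a prostaglandin E2 receptor that raises cAMP, had its largest rise at 2.33 in HP1α WT and 1.80 in HP1γ KO, and all its called peaks rose. At Ptger4, a related receptor, the called peaks went both ways in HP1α WT, with 2 lower (-3.18 and -1.21) and 2 higher (2.17 and 1.21), and in HP1γ KO 1 was called, which was lower (-2.31). Rapgef4, a cAMP-activated exchange factor, had a peak that rose by 3.01 and 2.38. Of the 75 peaks of other phosphodiesterases, 6 rose and 5 fell in HP1α WT and 6 rose and 3 fell in HP1γ KO. Those that rose were at Pde7b, Pde8b and Pde10a in both, with the largest at Pde10a in HP1α WT (3.68) and at Pde7b in HP1γ KO (2.53). All 5 that fell in HP1α WT were at Pde4a (-2.63 to -1.10), and in HP1γ KO 1 was at Pde4a (-1.02) and 2 at Pde7a (-1.38 and -1.23). These named peaks were chosen after their values were seen. Between HP1γ KO and WT Tconv without Treg, 0 of the 412 peaks were higher and 18 lower, beside 1.69% and 1.66% of all peaks. With Treg, 21 were higher and 40 lower in HP1γ KO than in WT, beside 6.48% and 5.38%. From naive cells to Tconv, 98, 86, 96 and 84 of the 412 peaks rose and 77, 91, 102 and 101 fell in HP1α WT, HP1α KO, HP1γ WT and HP1γ KO, where 24.9%, 23.5%, 24.5% and 22.4% of all peaks rose and 17.5%, 19%, 22% and 20.6% fell. Of the 47 peaks of the adenosine and prostaglandin receptors 32 to 36 rose and 1 fell. Of the 66 peaks of adenosine handling 8 to 10 rose and 19 to 22 fell, of the 38 of G proteins and adenylate cyclases 2 to 7 and 7 to 8, of the 186 of kinases, exchange factors and transcription factors 29 to 34 and 37 to 55, and of the 75 of other phosphodiesterases 7 to 16 and 13 to 21.

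The genes whose promoter accessibility followed that of a member most closely over the 12 group means were listed as a description, since these groups share depth and normalisation. Pearson's r was highest for Pde4b with Nsmce1 (0.988), Aqp11 (0.984) and Lef1 (0.983), for Crem with Inpp5a (0.982) and for Entpd1 with Cfap36 (0.979). For Adora2a it was highest with Scd2 (0.974), for Pde4d with Atp6v1a (0.969) and for Pde3b with Mamstr (0.955). For the Nt5e promoter it was highest with Mtus1 (0.849).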

How the data were processed

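ATAC-seq was made from 36 libraries of mouse CD4+ T cells. According to the methods, the authors trimmed reads with Trim Galore 0.6.7, aligned them with BWA-MEM, removed duplicates with Picard, called peaks per sample with HMMRATAC, merged them with BEDTools and counted reads per merged peak with featureCounts 2.0.3, and these raw counts were the values deposited. A read that overlaps several peaks can be counted in each. Of 71512 intervals, 3 of no width were left out, and 1 peak was absent from the deposited list of positions.

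HP1α and HP1γ libraries were fitted separately over all groups of a locus with edgeR 4.0.16 (quasi-likelihood test, TMM normalisation) in R 4.3.3, with 15 and 18 libraries, and p-values were adjusted by Benjamini-Hochberg over all peaks. Calls needed an adjusted p below 0.05 together with a log2 fold change beyond 1 in size. Biological variation between replicates (edgeR's coefficient) came to 26.6% in HP1α and 22.2% in HP1γ. Log2 CPM used TMM over all 36 libraries and a prior count of 2. A comparison of 36 library pairs of the same group found none identical, and every pair differed beyond sampling noise. The members and lists were chosen with earlier results of these data known.

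Peaks were named by rule, as the promoter peak and the most open peak of each gene, its peak with the smallest p in each Treg comparison, its peak with the smallest p in the other comparisons where called, and every member called with Treg. Alternatives were library size alone, loess offsets, no count filter, depth as a covariate, DESeq2 1.42.0, a fit of only the groups compared, all 18 HP1α libraries, a replicate block and leaving out each library, and, chosen after seeing the data, the earlier quasi-likelihood method of edgeR. The fits were tested on simulated data.

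Same-numbered libraries were checked for pairing by the correlation of their deviations from group means. All 3 correlations lay above 0.1 for KO against WT in HP1α naive cells (0.247 to 0.5), Treg in HP1γ WT (0.202 to 0.286) and KO against WT in HP1γ Tconv with Treg (0.147 to 0.323), as a hint from the data, since what a replicate number stands for is not stated. Windows of 300 bases around peak centres were read from GRCm39.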

Additional observations from a re-analysis of the deposited data

Results flagged for a closer look

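At the intronic Pde4d peak at chr13:109946191-109946540, the libraries of HP1α WT and HP1α KO lay on opposite sides of the Tconv without Treg. The HP1α WT libraries with Treg stood at 2.04 and 1.70 log2 CPM, above the 0.13, 0.47 and 0.55 without Treg. The single HP1α KO library with Treg stood at 0.59, below the 0.82, 0.64 and 0.73 without Treg. The interaction of genotype and Treg was -1.91 on the log2 scale (edgeR quasi-likelihood, unadjusted p = 0.00189, adjusted p = 0.210), which did not pass the threshold. The libraries left out of the fit stood at 0.82 in HP1α WT and 0.91 and 1.06 in HP1α KO.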

How the results depend on the processing

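Counts below are members called, with the reported count in brackets, and leaving out 1 library is given as a range. The HP1α WT Treg comparison (6) gave 3 with depth as a covariate and 0 to 7 on leaving out 1 library, with 0 without WT replicate 1 with Treg and 3 without WT replicate 1 of the Tconv. The HP1α KO Treg comparison (0) gave 1 with the depth covariate, 2 with all 18 HP1α libraries and 1 with the replicate block. For KO against WT in HP1α Tconv (0), leaving out 1 library gave 0 to 2, with 2 without KO replicate 1. For KO against WT in HP1α Tconv with Treg (4), the depth covariate, the earlier quasi-likelihood method and the fit of only the groups compared each gave 0, DESeq2 1 and all 18 libraries 2, and leaving out WT replicate 1 or 2 gave 0 or 2. The HP1γ WT Treg comparison (0) gave 2 with loess offsets, 1 with DESeq2, 1 with the replicate block and 0 to 2 on leaving out 1 library, with 2 without replicate 3 of the Tconv and 1 without replicate 2 with Treg. The HP1γ KO Treg comparison (11) gave 6 with the earlier quasi-likelihood method, 2 with only the groups compared, at Nt5e and Pde4d, and 4 to 21, with 4 without KO replicate 1 and 21 without KO replicate 2 with Treg, and 6 without KO replicate 1 of the Tconv. KO against WT in HP1γ naive cells (0) gave 2 with DESeq2 and 1 with only the groups compared. In HP1γ Tconv (2) the depth covariate and DESeq2 each gave 1, only the groups compared 0, and leaving out 1 library 0 to 3, with 0 without KO replicate 3 or WT replicate 1 or 2 and 1 without KO replicate 2. In HP1γ Tconv with Treg (17), only the groups compared gave 6, the replicate block 16, and leaving out 1 library 8 to 20, with 8 without KO replicate 1 and 9 without WT replicate 2. For these shifts the cause was not tested, beyond the smaller number of libraries where some were left out. All other alternatives kept the count within 1.5 times, including all those for Tconv against naive. Of the single-peak values, 1 reversed. The Entpd1 peak at chr19:40699931-40700370 differed with Treg in HP1α WT by 1.40, and by -0.29 to 1.47 on leaving out 1 library, with -0.29 without WT replicate 1. Another 937 values kept their side of the threshold, 82 lost and 7 gained a call. Where numbers did not pair the libraries, the replicate block gave 6 members in HP1α WT, 13 in HP1γ KO and 3 for KO against WT in HP1α Tconv with Treg. Depth limits the HP1α WT group with Treg, where the shallowest fitted library held 1.49 M reads.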

Other observations

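Over the Pde4d locus, chosen after its values were seen, 46 of 48 peaks had a log2 difference above 0 between HP1γ KO and WT in naive cells, with a median of 0.34, although none was called. Of 561 other peaks within 10 Mb of the gene 74.3% were above 0 (median 0.18), and of 2560 peaks on the rest of chromosome 13 58.9% (median 0.06). In Tconv without Treg, 38 of 48 Pde4d peaks were above 0 (median 0.33), beside 64.9% and 57.5% of these neighbours. With Treg the count was 27 of 48, beside 53.5% and 53% of these neighbours. In HP1α KO against WT, 18 of 48 (37.5%) were above 0 in naive cells, beside 42.6% and 45% of these neighbours, 8 (16.7%) in Tconv, beside 41.4% and 45.5%, and 9 (18.8%) in Tconv with Treg, beside 27.6% and 40.8%.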
